A study of Mus musculus with 45 samples.

Results

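The transcripts of 7 immunity-related GTPases, Irgm1, Irgm2, Igtp, Iigp1, Ifi47, Tgtp1 and Tgtp2, were followed in mouse bone marrow-derived macrophages. The genes were chosen by name, and all 7 of 7 were matched among the 29307 genes of the count table. No expression value was a criterion of the choice, although it was made with earlier results of these data known. Stranded mRNA libraries made from total RNA were sequenced, 45 in all, 5 from each of 9 groups formed by 3 Famin genotypes and 3 polarization states. FAMIN, encoded by Lacc1, is a purine enzyme of macrophages, and the study asked how its coding variants affect these cells. All mice were C57BL/6N and 6 to 10 weeks old, and the genotypes were p.254I, p.254V and p.284R. The study's methods describe heterozygous breeding with littermates distributed over the experiments.

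Marrow cells were grown for 6 days with M-CSF. M0 macrophages were then left unpolarized, M1 macrophages received IFN-γ at 50 ng/mL with LPS at 20 ng/mL for 24 h, and M2 macrophages received IL-4 at 20 ng/mL for 24 h. Because IFN-γ and LPS were given together, their shares in any M1 value cannot be told apart. Cultures that shared both genotype and replicate number were taken to come from 1 mouse, which gives 15 mice. In bulk RNA, a larger number of expressing cells and more RNA per cell cannot be told apart either.

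Immunity-related GTPases are made by mouse cells in response to interferons and assemble on the membranes of vacuoles that hold pathogens such as Toxoplasma gondii. The effector GTPases (GKS type, after the glycine, lysine and serine of their nucleotide-binding motif) coat and break these vacuoles. The regulatory GTPases (GMS type, with methionine in place of the lysine) sit on the cell's own membranes and keep the effectors inactive there. Irgm1, Irgm2 and Igtp are regulators, whereas Iigp1, Ifi47 and the near-identical pair Tgtp1 and Tgtp2 are effectors.

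In the mm10 assembly, 6 of the 7 genes lie on chromosome 11 (GENCODE M21 annotation, all protein coding). Irgm1 (ENSMUSG00000046879) spans chr11:48861968-48871683 on the minus strand, and it is followed by Tgtp1 (ENSMUSG00000078922, chr11:48985327-48994172, minus strand). Next come Tgtp2 (ENSMUSG00000078921, chr11:49057194-49064206, minus strand) and Ifi47 (ENSMUSG00000078920, chr11:49076587-49096974, plus strand). Igtp (ENSMUSG00000078853, chr11:58199556-58207591) and Irgm2 (ENSMUSG00000069874, chr11:58199618-58222782) form a second cluster, 9102581 bases further on, and both are on the plus strand.

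Promoter windows from 250 bases before to 50 bases after the transcription start were present in the RefSeq-based table (GRCm38.p6) for 6 of the 7 genes, Iigp1 being the other one. They were searched on both strands for the interferon-γ activated sequence GAS (TTCNNNGAA) and for the interferon-stimulated response element ISRE (GAAA, any 2 bases, then GAAA again). A GAS match was found in 4 of the 6 windows, compared with 8.30% of all 32851 windows in the table. An ISRE match was found in 5 of the 6, compared with 3.44% of all windows. In Irgm2, Igtp, Tgtp1 and Tgtp2 the motifs stood in the same order and at the same spacing, GAS first. That combined arrangement, a GAS, any 2 bases and then an ISRE on the same strand, occurred in 5 of the 32851 windows (0.0152%), namely in those 4 genes and in Gm12185, another family member on chromosome 11. The pattern searched has the spacing that these windows show. Their stretches also resemble one another, so the 4 genes are not independent cases. The Irgm1 window held 2 overlapping ISRE matches and no GAS, and the Ifi47 window held neither. The following stretches, read 5′ to 3′ on each gene's strand, are shown because they hold this arrangement or, for Irgm1, the ISRE alone. Capitals mark the letters that lie in a GAS or ISRE match, and the 2 lower-case letters between them are the spacer.
Irgm2: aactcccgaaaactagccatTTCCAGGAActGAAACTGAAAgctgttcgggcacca
Igtp: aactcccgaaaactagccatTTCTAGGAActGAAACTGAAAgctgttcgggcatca
Tgtp1: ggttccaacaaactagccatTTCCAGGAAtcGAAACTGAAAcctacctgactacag
Tgtp2: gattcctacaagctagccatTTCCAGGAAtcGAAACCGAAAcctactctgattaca
Irgm1: caaGAAATAGAAACCGAAActgattctcaa

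The Irgm2 stretch is chr11:58214882-58214937 on the plus strand, within the annotated span of Irgm2 but outside its exons (intronic). The Igtp stretch is chr11:58199491-58199546 on the plus strand, just upstream of the annotated gene. The Tgtp1 stretch is chr11:48992299-48992354 on the minus strand, likewise inside Tgtp1 and outside its exons, and the Tgtp2 stretch is chr11:49064258-49064313 on the minus strand, upstream of the gene. The Irgm1 stretch is chr11:48871424-48871453 on the minus strand, within an annotated exon. A match of these letters is a description of the window and was not tested as a binding site.

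Reads were 50 bases long, so near-identical members could exchange reads. Of all 50-base windows of the longest Tgtp1 transcript, 91.4% occur exactly in the transcript of another gene, mostly Tgtp2, and 90.6% of those of Tgtp2 do, mostly in Tgtp1. The split of reads between these 2 genes is therefore uncertain. If reads found in both were left out of the counts, the levels of both are also too low. How such reads were treated is not given. The shares were 12.3% for Igtp, 7.36% for Irgm2, 3.71% for Ifi47, 3.19% for Iigp1 and 0% for Irgm1. Igtp and Irgm2 also share 162 exonic bases on the same strand. Tgtp1 shares 223 with Gm12185 and Ifi47 shares 111 with Olfr56, both on the same strand.

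Total counts ranged from 17239009 to 43740283 reads per library, with a median of 27553642, and no 2 libraries were identical. All 7 genes passed the filter on low counts, as did 12905 genes in all. Levels are given as CPM (counts scaled to a common library total, with TMM factors), and genes were called at a Benjamini-Hochberg adjusted p under 0.05 over those 12905 genes in edgeR's quasi-likelihood test. The macrophage label was checked with Adgre1, Csf1r, Cd68, Itgam, Fcgr1, Mertk and Lyz2, whose summed level was 9583 to 33188 CPM. The median sum was 27881 CPM in M0, 11960 in M1 and 11714 in M2. All 3 M1 markers that were tested (of Cxcl9, Nos2, Il12b and Ido1) rose in M1, and all 4 M2 markers (Arg1, Chil3, Retnla and Mrc1) rose in M2. Nos2 was also called higher in M2 than in M0, by 3.28 ± 1.03 (SE) on the log2 scale (edgeR's quasi-likelihood test, adjusted p = 0.00414). That rise lay between low levels. The 4 M1 markers together had at most 1.68 CPM in any M0 library and 1.61 CPM in any M2 library. In M1 they summed to 982 to 5426 CPM. Arg1 was called higher in M1 than in M0, by 2.20 ± 0.67 (edgeR's quasi-likelihood test, adjusted p = 0.00306). In the M1 library of p.254I replicate 5, Arg1 had 40.8 CPM and Retnla 49.1 CPM, whereas the next highest M1 library had 0.912 and 0.249 CPM. B cell markers summed to at most 0.487 CPM and red cell markers to at most 0.0406 CPM in any library. T and NK cell markers summed to at most 46.8 CPM, with 1 of the 6, Cd4, passing the filter, and neutrophil markers to at most 87.6 CPM. By median over the libraries of M0, M1 and M2, dendritic cell markers summed to 0.795, 8.78 and 7.44 CPM, fibroblast markers to 19.4, 4.99 and 8.51 CPM, T and NK cell markers to 30.5, 9.97 and 5.14 CPM, and neutrophil markers to 25.6, 16.7 and 8.23 CPM. The 2 dendritic cell markers that passed the filter did not move together. In M1, Xcr1 was at 8.23 ± 0.24 (SE) and Zbtb46 at -0.98 ± 0.24 on the log2 scale. In M2, Zbtb46 was at 3.69 ± 0.19, whereas Xcr1 was at -0.59 ± 0.61 and was not called. Whether these sums followed cell numbers or the regulation of single genes was not tested. The part of these shifts in the polarization changes of the members was not tested either. Ifng, which encodes IFN-γ itself, had 0 reads in every M0 library and reached at most 0.0772 CPM elsewhere.

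Before the comparisons, 2 features of the libraries bear on the values. The mouse p.254I replicate 4 stood apart in M0 and M2, and the 3 mice with replicate number 2 stood apart in M1 for some of the genes. Both are described after the polarization results. The values that leaving them out moved most are given with and without them.

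The first question was how polarization altered the family. All 7 genes rose in M1 macrophages over M0, whereas 37.0% of all genes tested were called higher and 77.3% were called in either direction. The median log2 fold change of the 7 was 5.17, compared with -0.03 over all genes tested. For each of the 7 genes, the lowest of the 15 M1 libraries was above the highest of the 15 M0 libraries.

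**Figure D1:**
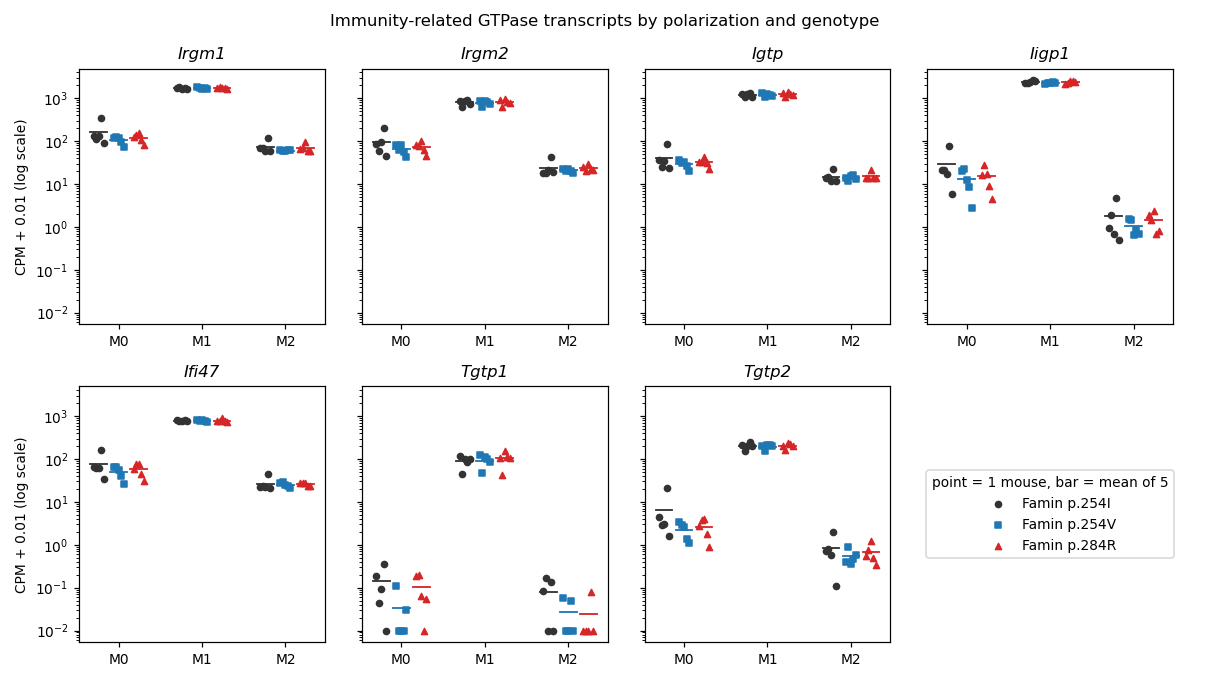
Level of each immunity-related GTPase in CPM plus 0.01 (log scale) by polarization state, for Famin p.254I (circles), p.254V (squares) and p.284R (triangles). Each point is 1 of 45 libraries and each bar the mean of 5. The M1 points lie above all others in every panel, and 1 p.254I point stands above the rest in M0.

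Among the regulators, Irgm1, which is needed for resistance to mycobacteria, ranged in M0 from 72.8 CPM over a median of 121 to 351 CPM (n = 15). In M1 its range was 1617 to 1820 with a median of 1745 CPM, and in M2 it was 57.9 to 115 with a median of 61.3 CPM. The M1 libraries were set far above the rest, whereas the M0 and M2 ranges overlapped, although M2 was below M0 in 15 of 15 mice. Averaged over genotypes, Irgm1 rose in M1 by a log2 fold change of 3.75 ± 0.14 (SE), which is 13.5-fold (edgeR's quasi-likelihood test, adjusted p = 3.11e-25).

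Irgm2, a regulator found at the Golgi membrane, lay between 41.6 and 198 CPM in M0 with a median of 75.4. It lay between 623 and 963 CPM in M1 with a median of 820, and between 18.3 and 42.6 CPM in M2 with a median of 20.8. The highest M2 library was thus just above the lowest M0 library. The M1 change was 3.39 ± 0.16 (SE) on the log2 scale, or 10.5-fold (edgeR's quasi-likelihood test, adjusted p = 6.11e-22), and this was the smallest M1 rise of the 7 genes.

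Igtp, a regulator associated with the endoplasmic reticulum and lipid droplets, went from 20.3 to 84.6 CPM in M0 (median 31.8) to 1044 to 1367 CPM in M1 (median 1241). In M2 it lay between 11.7 and 21.98 CPM, with a median of 14.0. Its M1 rise of 5.17 ± 0.14 (SE) on the log2 scale, 35.9-fold, was greater than that of the other 2 regulators (edgeR's quasi-likelihood test, adjusted p = 1.87e-29). That ordering of folds between genes was not tested.

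Among the effectors, Iigp1 (ENSMUSG00000054072) is the 1 gene away from chromosome 11, at chr18:60376027-60392634 on the plus strand. This GTPase, which oligomerizes on the Toxoplasma vacuole, lay between 2.68 and 77.6 CPM in M0, with a median of 17.3. It reached 2193 to 2634 CPM in M1, with a median of 2277, and sank to 0.497 to 4.67 CPM in M2, with a median of 0.923. The lowest M1 library was thus far above the highest M0 library, and 8 of the 15 M2 libraries were below 1 CPM. The M1 rise was 7.04 ± 0.33 (SE) on the log2 scale, or 131-fold (edgeR's quasi-likelihood test, adjusted p = 9.57e-22).

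Ifi47, an effector that also loads onto pathogen vacuoles, lay between 26.7 and 165 CPM in M0 (median 61.6). In M1 the range was 722 to 887 CPM (median 767), and in M2 it was 20.7 to 43.7 CPM (median 24.1). Its M1 rise of 3.70 ± 0.16 (SE) on the log2 scale, 13.0-fold, was close in size to that of Irgm1 (edgeR's quasi-likelihood test, adjusted p = 6.17e-23).

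The pair Tgtp1 and Tgtp2, effectors that take part in vacuole disruption, had the lowest mean CPM in each polarization. Their shared sequence leaves it uncertain whether they were the least abundant. Tgtp2 lay between 0.879 and 20.7 CPM in M0 (median 2.81), between 153 and 244 CPM in M1 (median 204) and between 0.0995 and 1.95 CPM in M2 (median 0.570). Tgtp1 had 0 to 9 reads in M0 libraries, with 5 of 15 at 0, and 0 to 4 reads in M2 libraries, with 9 of 15 at 0. In M1 it reached 43.1 to 151 CPM with a median of 99.0. The fitted M1 rises were 5.90 ± 0.25 (SE) for Tgtp2 (59.7-fold) and 10.38 ± 0.27 (SE) for Tgtp1 on the log2 scale (edgeR's quasi-likelihood test, adjusted p = 4.74e-23 and 2.86e-30). With their reads added into 1 gene before the fit, the pair rose by 6.43 ± 0.27 (SE), a value that does not depend on the split between them. The size of the Tgtp1 value rests on a few M0 reads.

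Without p.254I replicate 4, all 7 genes were again called higher in M1 by edgeR's quasi-likelihood test. The averaged rises were then 3.92 for Irgm1, 3.53 for Irgm2, 5.31 for Igtp, 7.30 for Iigp1, 3.85 for Ifi47, 6.26 for Tgtp2 and 10.64 for Tgtp1 on the log2 scale.

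In M2 macrophages 6 of the 7 genes fell below M0, compared with 39.6% of all genes tested called lower, and none rose. Iigp1 fell the most, by 3.70 ± 0.33 (SE) on the log2 scale, and Tgtp2 fell by 2.30 ± 0.34. Irgm2 fell by 1.75 ± 0.15, Ifi47 by 1.22 ± 0.15, Igtp by 1.19 ± 0.13 and Irgm1 by 0.92 ± 0.13. The adjusted p-values in edgeR's quasi-likelihood test lay between 2.62e-13 for Irgm2 and 9.80e-08 for Tgtp2. Each of these 6 genes was lower in M2 than in M0 in 15 of 15 mice. Without p.254I replicate 4 the same 6 were called, with values of -3.70 for Iigp1, -2.13 for Tgtp2, -1.69 for Irgm2, -1.14 for Ifi47, -1.09 for Igtp and -0.82 for Irgm1.

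For Tgtp1 the M2 value was -1.19 ± 1.01 (SE) on the log2 scale and was not called (edgeR's quasi-likelihood test, adjusted p = 0.283). No M0 library held more than 9 reads and no M2 library more than 4. DESeq2's Wald test did call it, at -1.35 (adjusted p = 0.0338). Over the 23 alternative analyses in which the gene could be tested, its adjusted p lay between 0.0338 and 0.605.

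Directly compared, all 7 genes were higher in M1 than in M2, whereas 39.0% of all genes tested were called higher. The log2 fold changes ran from 4.67 ± 0.15 (SE) for Irgm1 to 11.57 ± 0.30 for Tgtp1. Iigp1 differed by 10.73 ± 0.40 and Igtp by 6.35 ± 0.15.

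Levels of different genes were compared per kilobase of annotated exons. In M1, Igtp was the highest at 595 ± 50.8 CPM per kilobase (SD, n = 15), ahead of Iigp1 at 402 ± 24.7. Ifi47 at 317 ± 17.0 and Irgm1 at 297 ± 12.0 followed, and their ranges (292 to 359 and 278 to 313) overlapped. Irgm2 had 217 ± 29.9, Tgtp2 68.3 ± 9.25 and Tgtp1 29.7 ± 9.56 CPM per kilobase. The place of Tgtp1 and Tgtp2 depends on how their shared reads were counted. The order at the top depends on the length used. Per kilobase of the longest transcript, Iigp1 (750 ± 46.0) stood above Igtp (595 ± 50.8), and Irgm1 (450 ± 18.1) above Ifi47 (442 ± 23.7), again with overlapping ranges. In M0 the same scale gave 24.9 ± 13.2 CPM per kilobase of exons for Ifi47, 22.4 ± 11.2 for Irgm1 and 21.03 ± 10.3 for Irgm2, which overlapped, and 3.26 ± 3.06 for Iigp1.

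The second question was whether the change with polarization was alike in the 3 genotypes. Within each genotype all 7 genes rose in M1, beside 29.1% of all genes tested in p.254I, 30.3% in p.254V and 31.0% in p.284R. The M1 rise of Irgm1 was 3.39 ± 0.24 (SE) in p.254I, 4.02 ± 0.25 in p.254V and 3.84 ± 0.24 in p.284R on the log2 scale. That of Igtp was 4.87 ± 0.25, 5.36 ± 0.25 and 5.26 ± 0.25, and that of Iigp1 was 6.37 ± 0.56, 7.43 ± 0.59 and 7.31 ± 0.58, in the same order. For all 7 genes the smallest rise was in p.254I. Without p.254I replicate 4 the p.254I rise became 3.88 ± 0.16 for Irgm1, 5.31 ± 0.18 for Igtp and 7.13 ± 0.51 for Iigp1. It then lay between the other 2 genotypes for Irgm1 and Igtp.

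In M2, 6 of the 7 genes fell in every genotype, beside 30.6% of genes called lower in p.254I, 29.2% in p.254V and 30.2% in p.284R. The fall of Iigp1 was 3.97 ± 0.55 (SE) in p.254I, 3.71 ± 0.60 in p.254V and 3.41 ± 0.56 in p.284R. Without p.254I replicate 4 the p.254I value of Iigp1 was -3.99 ± 0.54. Tgtp1 was not called in any genotype by edgeR's quasi-likelihood test, its adjusted p lying between 0.224 and 0.828. DESeq2's Wald test called it in p.284R alone, at -2.62 (adjusted p = 0.0279).

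**Figure D2:**
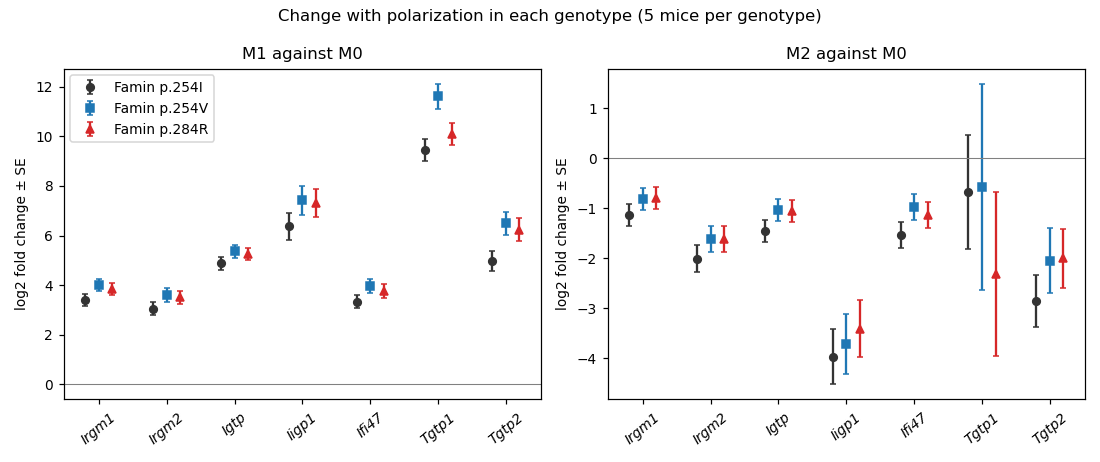
Log2 fold change with its standard error (edgeR) of M1 against M0 (left) and M2 against M0 (right) for each gene, in p.254I (circles), p.254V (squares) and p.284R (triangles) macrophages, 5 mice each. All points on the left are above 3 and, apart from Tgtp1, all intervals on the right are below 0.

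The interaction tests asked whether the M1 or M2 change itself differed between genotypes. In none of the 6 tests was any of the 7 genes called, and 0 of the 12905 genes were called (0%) by edgeR's quasi-likelihood test, limma-voom or DESeq2. Over all genes, 70 to 356 had an unadjusted p under 0.05 in edgeR. At an unadjusted p under 0.05, Tgtp2 and Irgm1 passed for the M1 change of p.254V against p.254I. The difference was 1.51 ± 0.56 (SE) for Tgtp2 (unadjusted p = 0.0104) and 0.62 ± 0.31 for Irgm1 (unadjusted p = 0.0499), both in edgeR's quasi-likelihood test. Tgtp2 also passed for p.284R against p.254I, at 1.26 ± 0.55 (unadjusted p = 0.027). Without p.254I replicate 4 these became 0.45 ± 0.39 and 0.14 ± 0.19 for p.254V, and 0.20 ± 0.38 for p.284R. With all mice, edgeR's quasi-likelihood test was also fitted to only the libraries compared. The unadjusted p was then 0.037 for Tgtp2 and 0.101 for Irgm1 in p.254V, and 0.078 for Tgtp2 in p.284R.

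The third question was whether the genotypes differed at a given polarization. In M1 macrophages none of the 7 genes was called in any of the 3 comparisons of edgeR's quasi-likelihood test. The background was 34 genes called for p.284R against p.254I (0.263%), 10 for p.284R against p.254V (0.0775%) and 0 for p.254V against p.254I (0%). In that last comparison 120 genes had an unadjusted p under 0.05, DESeq2 called 3 and limma-voom 0. In the first 2, limma-voom called 11 and 0 genes and DESeq2 64 and 21. A fit of only the libraries compared called 1 and 0 there. With the replicate number as a block the 3 edgeR gene counts were 64, 36 and 0, and again none of the 7 was among them. Without p.254I replicate 4 the first 2 counts were 7 and 8, and without p.254I replicate 5 they were 24 and 6. The 34 genes included Arg1 and Retnla, both lower in p.284R, and Nos2, higher in p.284R and also among the 10. Arg1 and Retnla were high in 1 M1 library, p.254I replicate 5, as given above. They were at -3.69 and -6.92 for p.284R against p.254I. For p.254V against p.254I they were at -3.70 and -6.56 and were not called. No member reached an unadjusted p under 0.05 either.

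The M1 values of Irgm1 show how close the groups lay. The p.254I libraries had 1765, 1792, 1617, 1776 and 1634 CPM, the p.254V libraries 1820, 1777, 1671, 1707 and 1644 CPM, and the p.284R libraries 1745, 1818, 1767, 1689 and 1655 CPM (replicates 1 to 5). The 3 ranges, 1617 to 1792, 1644 to 1820 and 1655 to 1818 CPM, overlapped. In a fit of the M1 libraries compared alone, p.284R differed from p.254I by 0.01 on the log2 scale, with a range of 2 SE from -0.11 to 0.13, or 0.927-fold to 1.10-fold.

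Iigp1 in M1 had 2208, 2255, 2340, 2634 and 2457 CPM in p.254I, 2193, 2208, 2247, 2362 and 2277 CPM in p.254V, and 2204, 2259, 2490, 2586 and 2400 CPM in p.284R. The p.254V libraries spanned the narrowest range and lay within those of p.254I but for 1. The 2 SE ranges on this scale were -0.14 to 0.15 for p.284R against p.254I and -0.20 to 0.04 for p.254V against p.254I. For the other members except Tgtp1, all such ranges in M1 lay between -0.29 and 0.30. Tgtp1 was the least certain, with 0.22 and a range from -0.41 to 0.86 for p.284R against p.254I. Without the mice of replicate number 2, in the fit of all remaining libraries, that Tgtp1 difference was 0.25 ± 0.17 (SE), and those of Tgtp2 and Irgm2 were -0.00 ± 0.38 and 0.03 ± 0.29. This fit shares the spread with M0 and M2, so its SE cannot be compared with the ranges above.

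In M0 macrophages again none of the 7 genes was called between genotypes by edgeR's quasi-likelihood test, and 0 of the 12905 genes were called in any of the 3 comparisons (0%). At an unadjusted p under 0.05, 231 genes passed for p.254V against p.254I, 140 for p.284R against p.254I and 53 for p.284R against p.254V. DESeq2 called 1, 1 and 0 genes and limma-voom 0. All 7 genes were lower on average in p.254V and in p.284R than in p.254I, the 2 comparisons sharing the p.254I libraries. For p.254V, 6 of the 7 had an unadjusted p under 0.05, led by Tgtp2 at -1.56 ± 0.44 (SE) and Iigp1 at -1.13 ± 0.46 on the log2 scale. For p.284R, 2 did, Tgtp2 at -1.25 ± 0.43 and Iigp1 at -0.94 ± 0.46. The spread behind these p-values was shared with M1 and M2. The M0 libraries compared were also fitted alone in edgeR's quasi-likelihood test. For p.254V the unadjusted p was then 0.040 for Tgtp2 and 0.091 to 0.163 for Irgm1, Irgm2, Igtp, Iigp1 and Ifi47. For p.284R it was 0.082 for Tgtp2 and 0.156 to 0.307 for the same other genes.

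In these M0 values 1 mouse lay apart from the others. Irgm1 had 133, 114, 131, 351 and 89.3 CPM in p.254I, 121, 127, 115, 96.0 and 72.8 CPM in p.254V, and 121, 142, 154, 103 and 82.3 CPM in p.284R. Iigp1 had 21.7, 21.6, 17.3, 77.6 and 5.90 CPM in p.254I, 20.1, 22.3, 12.5, 8.32 and 2.68 CPM in p.254V, and 16.5, 27.4, 17.5, 8.80 and 4.48 CPM in p.284R. The p.254I library of replicate 4 was the highest of the 15 for both genes, and the other 4 p.254I libraries overlapped the remaining genotypes. Without that mouse the p.254V difference became -0.13 ± 0.14 (SE) for Irgm1, -0.34 ± 0.39 for Iigp1 and -0.43 ± 0.32 for Tgtp2. The p.284R difference became 0.05 ± 0.14, -0.14 ± 0.39 and -0.12 ± 0.31, and none of the 7 genes then had an unadjusted p under 0.05 in either comparison.

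**Figure D3:**
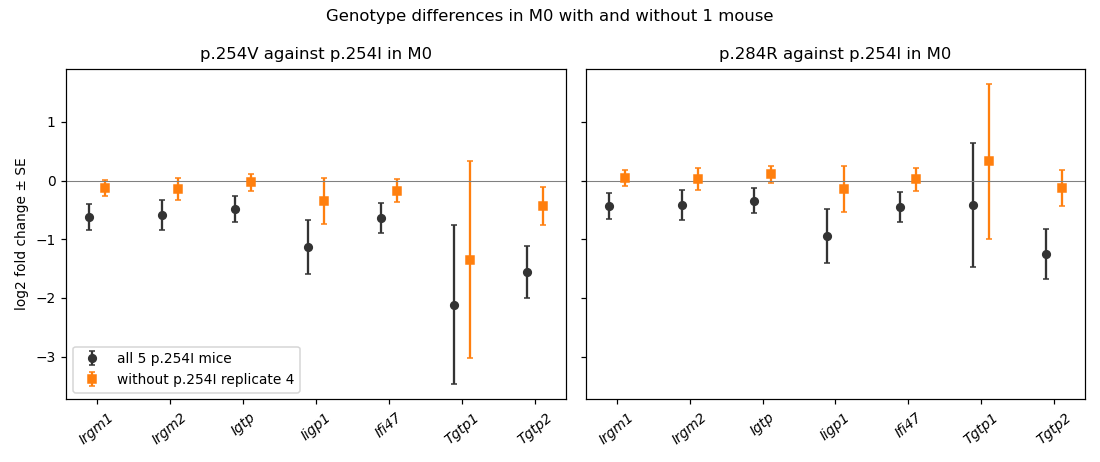
Log2 fold change with its standard error (edgeR) in M0 macrophages, p.254V (left) and p.284R (right) against p.254I, with all 5 p.254I mice (circles) and without p.254I replicate 4 (squares). Apart from Tgtp1, the squares lie between -0.43 and 0.11, closer to 0 than the circles.

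In M2 macrophages none of the 7 genes was called between genotypes by edgeR's quasi-likelihood test, and none had an unadjusted p under 0.05. Over all genes 1 was called for p.284R against p.254I (0.00775%) and 0 for the other comparisons (0%). Those had 329 genes (p.254V against p.254I) and 310 genes (p.284R against p.254V) at an unadjusted p under 0.05, and DESeq2 called 2 and 0 genes there and limma-voom 0. The largest member difference outside Tgtp1 was -0.87 ± 0.68 (SE) for Iigp1 in p.254V against p.254I, a gene with 10 to 151 reads in these libraries. Iigp1 had 0.923, 1.93, 0.685, 4.67 and 0.497 CPM in p.254I and 1.51, 1.45, 0.633, 0.843 and 0.684 CPM in p.254V, so that p.254I replicate 4 was again the highest. Without that mouse the difference was -0.05 ± 0.66.

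The mouse p.254I replicate 4 was the highest of the 15 M0 libraries for all 6 members with a median of at least 1 CPM, compared with 18.3% of all genes measured at that level. Its ratio to the median of the other 14 M0 libraries was 2.97 for Irgm1 (351 CPM), 2.87 for Irgm2 (198 CPM) and 2.72 for Igtp (84.6 CPM). Among the effectors it was 4.59 for Iigp1 (77.6 CPM), 2.77 for Ifi47 (165 CPM) and 7.52 for Tgtp2 (20.7 CPM). In M2 macrophages of the same mouse all 4 members measured at that level were again the highest, with a median ratio of 1.85, beside 15.03% of all genes. In M1 its median ratio was 1.08 and 2 of the 7 members were the highest, beside 9.83% of all genes.

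The antiviral interferon-stimulated genes were also high in M0 in that mouse. All 9 (Isg15, Ifit1, Ifit2, Ifit3, Rsad2, Mx1, Mx2, Irf7 and Oasl2) were the highest of the 15 M0 libraries, with a median ratio of 4.36. Irf7, a transcription factor induced by type I interferon, had the largest ratio of the list, 10.1 (1540 CPM). Of the guanylate-binding proteins 5 of the 8 measured were the highest, with a median ratio of 1.98. In M2, 5 of the 9 antiviral genes were the highest (median ratio 3.28), whereas of 6 guanylate-binding proteins measured 1 was the highest and 2 were the lowest (median ratio 0.869). The other cell types' markers did not stand out on the high side in that M0 library. Its neutrophil marker sum was 26.5 CPM (others 7.51 to 87.6), its T and NK cell sum 30.5 CPM (others 20.9 to 46.8) and its B cell sum 0 CPM. Its fibroblast sum of 9.78 CPM and dendritic cell sum of 0.352 CPM were the lowest of the 15, and its macrophage sum of 20337 CPM lay within the others' range of 19546 to 33188. What sets this mouse apart was not tested.

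The level in M0 also went with the replicate number. Replicate number 5 had the lowest Irgm1, Irgm2, Igtp, Iigp1, Ifi47 and Tgtp2 values in each genotype. For Iigp1 the 3 libraries of number 5 had 2.68 to 5.90 CPM and the other 12 had at least 8.32 CPM. Their mean was 0.192 of that of the other libraries, p.254I replicate 4 included, for Iigp1, 0.268 for Tgtp2, 0.436 for Ifi47, 0.516 for Irgm2, 0.572 for Irgm1 and 0.606 for Igtp. What the number stands for (a day, a litter or a sequencing run) is not given in the sources used here, and its part in the M0 levels was not tested.

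In M1 the spread between libraries was narrower than in M0. The coefficient of variation over the 15 libraries was 4.03% for Irgm1, 5.37% for Ifi47, 6.13% for Iigp1 and 8.54% for Igtp in M1. The corresponding M0 values were 49.95%, 52.9%, 94.0% and 44.8%, and they were 20.4%, 29.98%, 52.01% and 20.02% without p.254I replicate 4. The coefficient of Tgtp1 in M1, 32.2%, was the highest of the 7.

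The 3 mice with replicate number 2 accounted for much of the M1 spread of Tgtp1, Tgtp2 and Irgm2. Tgtp1 had 120, 43.8, 98.9, 86.0 and 97.4 CPM in p.254I, 122, 46.6, 110, 99.0 and 84.3 CPM in p.254V, and 108, 43.1, 151, 112 and 108 CPM in p.284R. The second value was the lowest in each genotype, 43.1 to 46.6 CPM against 84.3 to 151 CPM in the other 12 libraries. Tgtp2 had 153 to 158 CPM in these 3 libraries and 197 to 244 in the others, and Irgm2 had 623 to 637 CPM and 735 to 963. Igtp was lower to a lesser degree, 1044 to 1079 CPM beside 1088 to 1367.

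Irgm1, Iigp1 and Ifi47 did not share this pattern. Their ratio of the mean in replicate number 2 to the mean of the other M1 libraries was 1.05, 0.947 and 0.980, whereas it was 0.412 for Tgtp1, 0.731 for Tgtp2, 0.744 for Irgm2 and 0.856 for Igtp. The 4 lower genes are the 4 of the 6 with a promoter window, printed above, that holds the GAS and ISRE arrangement, an overlap noticed after the values were seen. They are also the 4 members with the largest share of 50-base windows found in another gene's transcript, 7.36% to 91.4%. The parts of either feature, and of the replicate number itself, were not tested. Without replicate number 2 the coefficients of variation in M1 were 16.5% for Tgtp1, 7.14% for Tgtp2 and 8.58% for Irgm2, down from 32.2%, 13.5% and 13.8%.

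The share of Tgtp1 in the summed Tgtp1 and Tgtp2 reads in M1 differed in the same libraries. It was 22.2% (95% exact binomial interval 21.2 to 23.3) in p.254I, 23.3% (22.2 to 24.5) in p.254V and 21.4% (20.2 to 22.6) in p.284R for replicate number 2. In the other 12 libraries it ran from 26.1% (25.2 to 27.0) to 39.0% (38.0 to 40.04). The intervals of the former 3 did not overlap those of the latter 12, and they cover counting error only. Because most 50-base reads of the 2 genes are identical, this share depends on how such reads were assigned, which is not given in the sources used here.

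**Figure D4:**
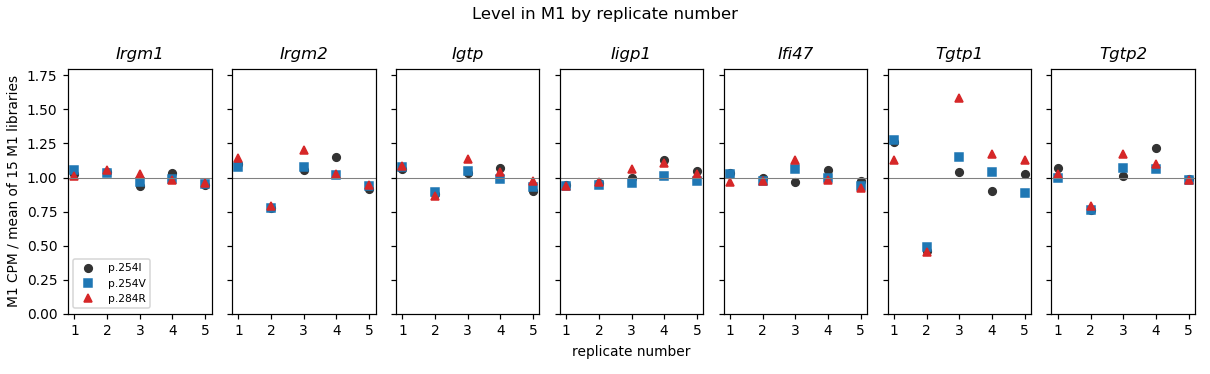
Level of each gene in M1 macrophages divided by its mean over the 15 M1 libraries, by replicate number, for p.254I (circles), p.254V (squares) and p.284R (triangles). At replicate number 2 the points of Tgtp1, Tgtp2, Irgm2 and, less so, Igtp lie below 1 in all 3 genotypes, whereas those of Irgm1, Iigp1 and Ifi47 lie close to 1.

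The rest of the family was examined with 10 further genes of the immunity-related GTPase type, of which 9 were in the count table and tested (Gm12250 was the other one). In M1, 7 rose and 1 fell, beside 37.0% of all genes called higher and 40.3% called lower, the median of the 9 being 1.77 on the log2 scale. The risers were Gm4841 at 11.04 ± 0.25 (SE), Gm12185 at 5.51 ± 0.15, F830016B08Rik at 5.10 ± 0.18, Gm4951 at 4.08 ± 0.19, Gm5431 at 1.77 ± 0.12, 9930111J21Rik1 at 1.35 ± 0.10 and 9930111J21Rik2 at 0.98 ± 0.10. Irgq, a divergent member not known as interferon-inducible, fell by 0.33 ± 0.05. Irgc1, a member known from the testis, was at -0.59 ± 0.61 and was not called (edgeR's quasi-likelihood test, adjusted p = 0.382). In M2, 7 fell, among them Gm5431 at -1.06 ± 0.12 and Irgq at -0.13 ± 0.05, and 1 rose, Irgc1 at 3.95 ± 0.37, beside 39.6% and 36.8% of all genes. Gm4841 at -1.93 ± 1.13 was not called there.

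The pathway that induces the family was examined next. IFN-γ binds its receptor (Ifngr1 and Ifngr2), which signals through the kinases JAK1 and JAK2, and the induced factor IRF1 acts at ISRE elements. Of the 9 genes of this list, 6 rose and 2 fell in M1, beside 37.0% of all genes called higher and 40.3% called lower. The median was 1.32 on the log2 scale. Irf1 rose by 3.75 ± 0.07 (SE), whereas Ifngr1 fell by 0.55 ± 0.07. In M2, 2 rose and 5 fell, beside 36.8% of all genes called higher and 39.6% called lower, with Ifngr1 at -0.39 ± 0.07. Irf1 in M2 was at 0.07 ± 0.07 and was not called (edgeR's quasi-likelihood test, adjusted p = 0.325).

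The guanylate-binding proteins, larger interferon-induced GTPases that gather on the same vacuoles, all rose in M1, 11 of 11 beside 37.0% of all genes, with a median of 6.87 on the log2 scale. Gbp2b had the largest change at 13.03 ± 0.26 (SE) and Gbp9 the smallest at 3.08 ± 0.14. In M2, 3 rose and 6 fell, beside 36.8% and 39.6% of all genes. Gbp2b was among those that rose, at 1.73 ± 0.34, and Gbp9 among those that fell, at -1.18 ± 0.14. In contrast, none of the 7 immunity-related GTPases rose in M2, a difference between the lists that was not tested.

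The ATG8 conjugation genes, whose products guide the GTPases to vacuoles, had smaller changes. In M1, 3 of 11 rose and 6 fell, beside 37.0% and 40.3% of all genes, with a median of -0.15, from Atg16l1 at 0.42 ± 0.04 (SE) to Gabarapl1 at -1.18 ± 0.07 on the log2 scale. In M2, 4 rose and 6 fell, beside 36.8% and 39.6%, with a median of -0.15. These shares were near those of all genes. The 9 antiviral interferon-stimulated genes all rose in M1, with a median of 2.90, from Oasl2 at 1.72 ± 0.20 to Ifit2 at 3.67 ± 0.30, and all fell in M2, with a median of -2.11, beside the same shares of all genes. No gene of these 5 lists was called between genotypes within M0, M1 or M2.

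Finally, the genes with the pattern most like the members' were sought by Pearson correlation of log2 CPM plus 1 with the mean of the members, among 11144 genes. Over all 45 libraries 4 of the first 5 were Ly6a (r = 0.996), Parp9 (0.996), Slco3a1 (0.995) and Stat3 (0.995), and 454 genes had r over 0.95. These points share the split of M1 from M0 and M2, which any gene high in M1 shows. Over the 15 M1 libraries, centered within genotype, they were Bfar (0.984), Parp11 (0.981), Usp15 (0.979), Nmi (0.973) and Aftph (0.970), and 32 genes had r over 0.95. Here the points share the replicate numbers described above. With a pseudocount of 0.1 in place of 1, 5 of the latter 5 genes remained in the list, whereas 2 of the former 5 did.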

How the data were processed

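The sample titles gave each library's genotype, polarization and replicate number (5 libraries in each of 9 groups). The authors deposited a table of counts, unnormalized whole reads for 29307 Ensembl genes, and a table of CPM for 11900 of them. Whole reads recovered from the deposited CPM (within 0.01 reads) came out whole for 100% of values and equalled the counts. Per the labels, libraries were stranded, single-end and 50 bases long, and the submitters' processing notes name FastQC, Trim Galore, HISAT2, limma and mm10. The sequencer is given as HiSeq3000 in one place and HiSeq4000 in another, and the sources also differ on the aligner. The counting tool, its annotation, its use of strand and its treatment of reads that map to several genes are not given in the sources used here. Gene symbols came from the deposited CPM values' gene names and, for genes without one, from GENCODE M21, which held 29146 of the identifiers. Promoter sequences came from RefSeq (GRCm38.p6).

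In R 4.3.3, filterByExpr over the 9 groups retained 12905 genes, which were scaled by TMM (factors 0.939 to 1.10). The quasi-likelihood test of edgeR 4.0.16 (robust) was fitted to all 45 libraries, with no block, and Benjamini-Hochberg adjusted p-values were taken over all 12905 genes. Standard errors were derived from its F statistics. The scripts were tested on simulated counts. Alternatives were limma-voom (limma 3.58.1), DESeq2 1.42.0, other scalings and filters, replicate blocks, fewer libraries, summed Tgtp1 and Tgtp2 and the recovered CPM reads. At 27553642 reads, the median total, a few reads are far below 1 CPM. A gene was set as measured in a polarization at a median of at least 1 CPM.

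Members were all named. Of the other family genes all that were tested were named, and of each further list the genes with the largest and smallest M1 change, with Irf1. A gene that the rule also covers is not reported here. Irf7 was named after its values were seen. The members, lists and motifs were chosen with earlier results of these data known. The pairing check correlated deviations from group means over 9522 genes. Same-numbered libraries of different genotypes correlated at over 0.1 in 15 of 15 pairs in M0 (0.12 to 0.86), 15 of 15 in M1 (0.28 to 0.87) and 13 of 15 in M2 (-0.42 to 0.78). Cultures of the same mouse did so in 38 of 45 pairs (-0.18 to 0.62). The pairing by mouse follows from the series' design of 5 mice per genotype. P-values of the main fit measure a spread between libraries within groups, pooled over the 9 groups. The cultures of a mouse entered it as separate libraries. The pooled spread differs from that of a single polarization. For Irgm1, p.284R against p.254I, fits of the compared libraries alone gave an SE of 0.342 in M0 and 0.0608 in M1. The fit of all libraries with Tgtp1 and Tgtp2 summed gave 0.219 and 0.217.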

Additional observations from a re-analysis of the deposited data

Results flagged for a closer look

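Within each group of 5 libraries, the gap between the most extreme library and its nearest neighbour was divided by the group's whole range and compared with Dixon's 95% critical value for 5 samples. Of 63 gene and group combinations 14 passed, and chance passes about 1 in 20 groups. The combinations are not independent, since the genes share libraries. The mouse p.254I replicate 4 was the extreme library, on the high side, in 9 of the 14. In M0 its ratio was 0.757 for Ifi47, 0.806 for Igtp, 0.78 for Iigp1, 0.835 for Irgm1 and 0.856 for Tgtp2. In M2 it was 0.856 for Ifi47, 0.729 for Igtp, 0.781 for Irgm1 and 0.871 for Irgm2. Igtp in M2 was high in p.284R replicate 3 (20.7 CPM, ratio 0.937), and Ifi47 in M1 was high in the same mouse (887 CPM, ratio 0.726). Tgtp2 in M1 was low in p.254V replicate 2 (153 CPM, ratio 0.718). Tgtp1 was high in M0 in p.254V replicate 1 (0.0985 CPM, ratio 0.789) and in M2 in p.284R replicate 4 (0.0691 CPM, ratio 1.0), each a value of a few reads beside libraries at or near 0.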

How the results depend on the processing

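The number of members called in each comparison stayed within 1.5 times its reported value under every alternative run (693 of 693 values), and no member's value reversed where it was called. At least 10 reads in every library left 5 members to test. Over the 26 alternatives the M1 rise ranged from 3.71 to 3.92 for Irgm1, from 5.13 to 5.31 for Igtp and from 6.95 to 7.43 for Iigp1 on the log2 scale. With the replicate block by mouse it was 3.83, 5.23 and 7.35, and with the replicate number as a replicate block none of the 7 genes was called between genotypes, the largest M1 difference being 0.20 ± 0.14 (SE) for Tgtp1. Neither block changed a call of a member. DESeq2's Wald test called Tgtp1 in M2, averaged (-1.35) and in p.284R (-2.62), and the cause was not tested. Leaving out single mice moved the Tgtp1 M2 value as far as -1.99 (without p.284R replicate 4). The recovered CPM reads and the analysis without replicate number 2 in all genotypes were chosen after seeing the data. The level per kilobase of Irgm1 in M1 was 297 CPM by exons and 450 by the longest transcript, which is shorter. Tgtp1 had 0 to 9 reads in M0 and M2 libraries, and the shared windows limit its split from Tgtp2 and the level of both.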
